A study of Mus musculus with 93 samples.

Results

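The 41 genes described here are expressed by the cells of brain blood vessels. Of these, 27 are genes of endothelial cells, and 14 are genes of mural cells (pericytes and smooth muscle cells) or of the basement membrane that these cells share. They were chosen by symbol as known vascular genes, with earlier results of these data known. They were found through their Ensembl identifiers in the GRCm38 annotation (GENCODE M21). All 41 were among the 47643 genes counted in every mouse. All 41 also passed the filter on low counts (10 or more counts in no fewer than 10% of mice), which left 23702 genes to test.

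The study compared how genetic background changes the brain of a mouse model of Alzheimer's disease. PolyA RNA of the left hemisphere was sequenced from 93 mice aged 8 months after perfusion with buffered saline, with a single library for each animal. The total of counts on genes had a median of 66559575 per mouse, with extremes of 53969802 and 106016200. Levels are given in CPM, the counts of a gene scaled to these totals after TMM normalization. B6 (C57BL/6J) is the usual laboratory strain. CAST (CAST/EiJ), WSB (WSB/EiJ) and PWK (PWK/PhJ) are inbred strains founded from wild-caught mice. *APP/PS1* mice carried a human mutant presenilin 1 and a chimeric mouse and human amyloid precursor protein with the Swedish mutations (APPswe and PSEN1dE9, line 85Dbo) in a hemizygous state. Both transgenes are driven by the mouse prion protein promoter, which is used to direct expression to neurons and not to vascular cells. They were bred from B6 carriers into each other strain for at least 6 generations, so that DNA of B6 origin may remain near the insertion in the other strains. Littermates without the transgenes served as wild-type (WT) controls. There were 12 WT and 10 *APP/PS1* mice of B6, 12 and 12 of CAST, 12 and 12 of WSB, and 11 WT and 12 *APP/PS1* mice of PWK. Each of these groups held 6 females and 6 males, apart from 4 female B6.*APP/PS1* mice and 5 female PWK WT mice. The strains went through behavioural tests in turn (PWK, WSB, CAST, B6) before the brains were taken. PWK.*APP/PS1* mice were housed singly earlier than the others because of aggression. A further cohort of male CAST.*APP/PS1* mice was made after losses during the tests, and the cohort of each mouse is not given here. Strain differences and the responses in PWK and in male CAST mice cannot be told apart from these conditions.

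Endothelial cells line the vessels, and in the brain they are sealed to one another by tight junctions and carry selective transporters, which together form the blood-brain barrier. Pericytes cover capillaries and smooth muscle cells surround arterioles, where they set vessel diameter and help maintain the barrier. Both cell types are embedded in a basement membrane built on a network of type IV collagen.

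Differences are log2 ratios with standard errors (SE) from edgeR's quasi-likelihood test, with the sexes averaged, and p-values are adjusted by the Benjamini-Hochberg method over the 23702 genes with a threshold of 0.05. The identifiers of the libraries fall into blocks of 24, here called pools, a grouping read from the identifiers and not stated by the submitters. CAST, WSB and PWK mice shared 3 pools, and B6 mice were in 4 others. A difference of any strain from B6 therefore cannot be told apart from a difference between these libraries, or from the use of another genome for alignment. Some of the differences among CAST, WSB and PWK are also given within each pool. Each of these strains was aligned to a custom genome of its own. A difference among them, also within a pool, cannot be told apart from one of alignment. A mean of 9.69% of reads were not unique in WSB, against 11.9% in PWK, 12.0% in CAST and 9.89% in B6.

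The endothelial genes were first sorted by the WT strain with the highest and the lowest mean, without the same counts over all genes. Of the 27 genes, the highest mean was that of B6 for 19, of CAST for 6, of WSB for 2 and of PWK for 0. The lowest mean was in CAST for 10, in PWK for 10, in WSB for 5 and in B6 for 2. The summed level of the 27 genes was 1251 ± 38.9 CPM (SD, n = 12) in B6, 1108 ± 29.7 in CAST and 1129.5 ± 29.9 in WSB (n = 12 each), and 1092 ± 28.4 in PWK (n = 11). *Bsg*, which is also expressed outside vessels, made up 355 CPM of the sum in B6, against 299.5 in CAST, 322 in WSB and 324 in PWK. Single B6 mice ran from 1174 to 1306 CPM, so that the lowest B6 mouse lay above all CAST mice (highest 1162) and all PWK mice (highest 1151), and below the highest WSB mouse (1185). In whole hemispheres, fewer cells of a type and less RNA per cell cannot be told apart.

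Compared with B6, 5 endothelial genes were higher in CAST (30.3% of all genes tested) and 17 were lower (31.1% of all genes). In WSB, 2 were higher (23.2% of all genes) and 15 lower (24.3%). In PWK, 1 was higher (28.8% of all genes) and 19 were lower (30.4%). The median log2 difference over the 27 genes was -0.24 in CAST, -0.14 in WSB and -0.23 in PWK, beside 0.00 over all genes in each case. *Ly6c1*, whose counts in WSB were near 0, passed the count filter through the other strains only, so that its place among the genes lower in WSB than in B6, CAST or PWK and among those past the F test is no result of a test. The size of its fitted difference has no effect on these medians. All 3 comparisons use the same B6 mice. Among the other strains, CAST exceeded PWK in 13 genes (27.8% of all genes) and was below it in 8 (27.1%), WSB exceeded PWK in 9 (27.5%) and was below it in 5 (27.0%), and CAST exceeded WSB in 11 (27.1%) and was below it in 10 (27.2%). Medians of these differences were 0.11, 0.01 and -0.05. Strain differences reached the threshold in an F test over the WT strains for 26 of the 27 genes, and for 84.5% of all genes. The other gene was *Pdgfb*, the growth factor by which endothelial cells recruit pericytes (adjusted p = 0.325 by edgeR).

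**Figure D1:**
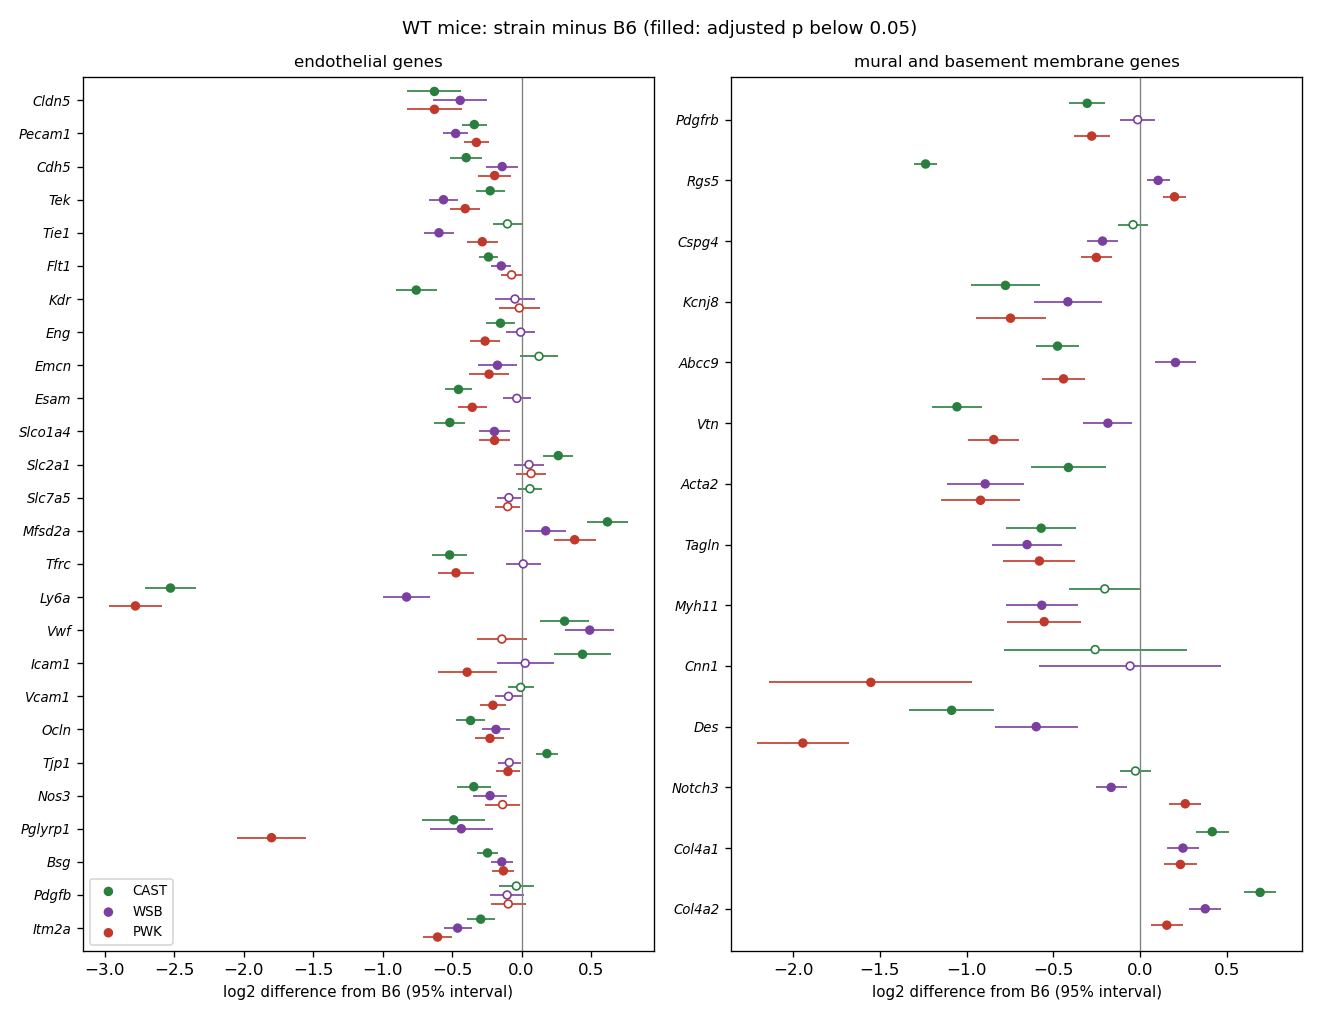
Log2 difference from B6 (horizontal axis) of each endothelial gene (left) and each mural or basement membrane gene (right) in WT CAST, WSB and PWK mice, with 95% intervals and filled points where the adjusted p was below 0.05. Most points lie left of 0, *Ly6a*, *Des*, *Pglyrp1* and *Cnn1* reach farthest left, and *Col4a1* and *Col4a2* lie right of 0 in each strain; *Ly6c1* is not drawn.

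Of the genes of junctions between endothelial cells, *Cldn5*, *Pecam1*, *Cdh5* and *Ocln* were lower in each other strain than in B6. *Cldn5* (chr16:18776847-18778262), the main claudin of brain endothelial tight junctions, had a median of 28.1 CPM in B6 WT mice (18.1 to 43.2), 17.7 in CAST (14.6 to 21.8), 20.3 in WSB (16.5 to 27.8) and 17.8 in PWK (11.9 to 25.7). The strains overlapped, with 8 of 12 CAST, 3 of 12 WSB and 6 of 11 PWK mice below the lowest B6 mouse. *Cldn5* was lower than in B6 by a log2 difference of -0.63 in CAST (SE 0.10, edgeR adjusted p = 3.46e-08), -0.44 in WSB (8.93e-05) and -0.63 in PWK (7.56e-08). In the order B6, WSB, PWK, CAST, only the step from B6 to WSB passed the threshold.

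*Pecam1* (chr11:106654217-106750628), an adhesion molecule at endothelial cell contacts, had medians of 23.0 CPM in B6 (19.2 to 24.9), 18.0 in CAST (15.6 to 19.9), 16.2 in WSB (14.5 to 17.9) and 18.3 in PWK (14.3 to 20.3). All 12 WSB mice, 8 of 12 CAST mice and 9 of 11 PWK mice were below the lowest B6 mouse. The log2 difference from B6 was -0.34 in CAST (edgeR adjusted p = 2.02e-10), -0.47 in WSB (9.57e-16) and -0.33 in PWK (2.03e-09). *Cdh5*, the cadherin of endothelial adherens junctions, was lower by -0.40 in CAST (edgeR adjusted p = 8.06e-09), -0.14 in WSB (0.0431) and -0.19 in PWK (0.00398). The call in WSB was lost with DESeq2's size factors (adjusted p = 0.0506), without the count filter (0.0548) and in a fit of WT mice only (0.0541). *Esam*, a further adhesion molecule, was -0.45 in CAST (4.34e-13 by edgeR) and -0.35 in PWK (5.24e-09), with -0.03 in WSB (0.607), and all 12 CAST mice lay below the lowest WSB mouse. Occludin (*Ocln*) was lower in each strain, by -0.37 in CAST, where all 12 mice lay below the lowest B6 mouse, -0.18 in WSB and -0.23 in PWK. *Tjp1*, the scaffold protein under tight junctions, was higher in CAST by 0.18 (edgeR adjusted p = 7.27e-05), and all 12 CAST mice exceeded the highest WSB and the highest PWK mouse. In PWK *Tjp1* was lower than in B6 by -0.10 (edgeR adjusted p = 0.0391). This call was lost in DESeq2's test (0.0515), with its size factors (0.0526), without the count filter (0.0762), in WT mice only (0.0626) and without the library of PWK WT female 2 (0.0534), 3 (0.0587) or 4 (0.0528).

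Receptors that act in vessel growth and stability differed in pattern between the strains. *Kdr* (chr5:75932827-75978458), the main receptor for VEGF on endothelial cells, had medians of 19.8 CPM in B6 (16.2 to 21.3), 11.2 in CAST (8.52 to 14.6), 18.3 in WSB (15.7 to 20.8) and 19.7 in PWK (14.1 to 24.4). All 12 CAST WT mice were below the lowest B6 and the lowest WSB mouse, and 11 of 12 were below the lowest PWK mouse. *Kdr* in CAST differed from B6 by -0.76 (SE 0.07, edgeR adjusted p = 1.34e-15), from PWK by -0.74 (1.02e-14) and from WSB by -0.71 (2.99e-14). Within the 3 pools, the difference was -0.46, -0.79 and -0.77 from PWK, and -0.53, -0.73 and -0.82 from WSB. *Flt1*, the other VEGF receptor of endothelial cells, differed less, by -0.24 in CAST and -0.15 in WSB.

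The angiopoietin receptor *Tek* and the related receptor *Tie1* were lowest in WSB. *Tek* had medians of 18.3 CPM in B6, against 15.1 in CAST, 12.2 in WSB and 13.4 in PWK mice, and all 12 WSB mice lay below the lowest B6 mouse. *Tie1* had medians of 12.3, 11.4, 8.14 and 10.0 CPM in the same order, and all 12 WSB mice lay below the lowest mouse of B6 and of PWK. The log2 difference of WSB from B6 was -0.56 for *Tek* (edgeR adjusted p = 6.84e-16) and -0.59 for *Tie1* (2.29e-16). Endoglin (*Eng*), a co-receptor for TGF-beta ligands, was -0.15 in CAST and -0.26 in PWK. Endomucin (*Emcn*), a sialomucin of veins and capillaries, was -0.17 in WSB and -0.23 in PWK, and CAST exceeded PWK by 0.36 (edgeR adjusted p = 9.9e-06).

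Among the carriers of the barrier, some genes were higher in CAST and others lower. *Mfsd2a*, the transporter of lysophospholipids that carry docosahexaenoic acid, had a median of 24.0 CPM in CAST, 19.3 in PWK, 16.3 in WSB and 14.9 in B6. It exceeded B6 by 0.62 in CAST (edgeR adjusted p = 7.76e-12), 0.38 in PWK (8.86e-06) and 0.17 in WSB (0.0465), where the call was lost without the library of PWK WT female 1 (0.0506) or 3 (0.0505) and without the count filter (0.0643). The glucose transporter *Slc2a1* was higher in CAST than in B6 by 0.26 (1.33e-05 by edgeR), and its excess of 0.20 over PWK (0.00162) was -0.08, 0.38 and 0.18 within the pools. The transferrin receptor *Tfrc*, which brings iron into the brain, had medians of 113 CPM in B6 and in WSB, 73.5 in CAST and 80.7 in PWK. *Tfrc* was lower than in B6 by -0.52 in CAST (2.6e-11 by edgeR) and -0.47 in PWK (1.45e-09), and WSB exceeded PWK by 0.48. *Slco1a4*, a transporter of organic anions, was -0.52 in CAST, -0.20 in WSB and -0.19 in PWK. *Slc7a5*, a subunit of the large neutral amino acid transporter, passed the F test (edgeR adjusted p = 0.00159) with no pair of strains next to each other in level that differed. Basigin (*Bsg*), a glycoprotein that accompanies monocarboxylate transporters, was -0.24 in CAST, -0.14 in WSB and -0.13 in PWK. *Bsg* was the most abundant endothelial gene per length, at 179 CPM per kb of exons over the strains, followed by *Slc2a1* with 23.5, *Slc7a5* with 18.5 and *Itm2a* with 18.1. Several of these carriers are also expressed outside vessels, so that their levels are not those of endothelial cells alone.

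The largest strain differences among the 41 genes were in *Ly6c1* and *Ly6a*, which encode small surface proteins of the Ly6 family anchored by lipid and lie near each other on chromosome 15 (chr15:75044018-75048830 and chr15:74994877-74998031, both on the minus strand). *Ly6c1*, which marks brain endothelium, had a median of 22.5 CPM in B6 WT mice (17.8 to 31.1), 10.4 in CAST (9.41 to 12.7) and 16.01 in PWK (12.7 to 17.5). In WSB WT mice its level was between 0 and 0.0637 CPM. Counts of *Ly6c1* in the 24 WSB mice of both genotypes came to 34 in all, with 0 in 6 mice and a highest value of 4, while each of the other 69 mice had between 516 and 3037 counts. None of the 6 pairs of strains overlapped. Per count on genes, the level was 873 times that of WSB WT mice in B6 (95% exact interval 571 to 1411), 397 times in CAST (259.8 to 642) and 567 times in PWK (370.4 to 916). Such intervals cover counting error only. CAST was lower than B6 by -1.13 (SE 0.07, edgeR adjusted p = 5.24e-26) and PWK by -0.61 (2.85e-12), and CAST was lower than PWK by -0.52 (1.5e-09), or -0.64, -0.45 and -0.51 within the pools.

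*Ly6a* (Sca-1) had medians of 16.7 CPM in B6 (12.2 to 23.4), 2.84 in CAST (2.17 to 3.59), 9.47 in WSB (7.77 to 11.9) and 2.55 in PWK (1.72 to 3.06). Only CAST and PWK overlapped. *Ly6a* was 5.76-fold lower than in B6 in CAST (log2 -2.53, SE 0.09, edgeR adjusted p = 1.81e-42), 1.77-fold lower in WSB (-0.83, 2.35e-14) and 6.86-fold lower in PWK (-2.78, 7.93e-44). WSB exceeded PWK by 1.95 (edgeR adjusted p = 3.19e-33), with 1.91, 2.02 and 1.86 within the pools. CAST was below WSB by -1.70, with -1.76, -1.69 and -1.60 within the pools. CAST exceeded PWK by 0.25 (edgeR adjusted p = 0.0202), a difference that was 0.20 (0.0740) without the library of PWK WT female 5.

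Of the other Ly6 genes of the same region, *Ly6e* and *Ly6h* were abundant in all 4 strains, while *Ly6c2* had few counts in each. *Ly6e* (chr15:74955051-74959905) had mean levels of 124 CPM in B6, against 88.8 in CAST, 102 in WSB and 96.5 in PWK mice, and *Ly6h* (chr15:75551268-75567255) had 72.5, 76.4, 73.4 and 79.5. In WSB, *Ly6e* differed from B6 by -0.28 (edgeR adjusted p = 2.56e-06) and *Ly6h* by 0.02 (0.823). *Ly6c2* (chr15:75108158-75111970), the nearest relative of *Ly6c1*, was scarce in every strain, with 5 to 26 counts in single B6 WT mice, 1 to 14 in CAST, 0 to 6 in WSB and 5 to 33 in PWK. No test of *Ly6c2* is given, since it passed the count filter only through strains other than WSB. Also scarce were *Ly6d*, with its highest counts in WSB (6 to 23 per mouse), and *Ly6k* (19 to 61) and *Ly6i* (7 to 52) with theirs in CAST. The coding sequences of *Ly6c1* and *Ly6c2* are identical at 97.7% of aligned bases (384 of 393), and those of *Ly6c1* and *Ly6a* at 81.8% (329 of 402). Of the 100-base stretches of *Ly6c1* exons, 10.1% occur in another gene as well, mostly in *Ly6c2*, so that reads of this pair are uncertain. The first 120 coding bases of both genes in GRCm38, which is the B6 genome, show how few positions separate them (5′ to 3′, with the 6 bases that differ in capitals):
Ly6c1: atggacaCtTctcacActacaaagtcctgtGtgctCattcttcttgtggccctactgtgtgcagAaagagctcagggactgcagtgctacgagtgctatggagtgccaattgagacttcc
Ly6c2: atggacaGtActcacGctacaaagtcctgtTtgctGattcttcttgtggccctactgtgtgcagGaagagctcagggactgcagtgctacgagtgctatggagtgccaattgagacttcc
The genome used for WSB was not analysed here, and the part of the alignment in these values was not tested.

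*Pglyrp1* (chr7:18871331-18890459), a peptidoglycan recognition protein found in brain endothelium, was lowest in PWK. Its medians were 4.14 CPM in B6 (3.10 to 6.10), 3.08 in CAST (2.33 to 4.54), 3.32 in WSB (2.40 to 4.03) and 1.23 in PWK (0.780 to 1.72). All 11 PWK mice lay below the lowest mouse of each other strain. *Pglyrp1* in PWK was 3.48-fold lower than in B6 (log2 -1.80, SE 0.12, edgeR adjusted p = 1.86e-23). CAST exceeded PWK by 1.31 (3.76e-16 by edgeR; 1.11, 1.48 and 1.26 within the pools) and WSB exceeded PWK by 1.37 (5.79e-17; 1.34, 1.18 and 1.59). *Itm2a*, a membrane protein enriched in brain endothelium, fell in the order B6, CAST, WSB, PWK with medians of 39.7, 32.4, 28.5 and 26.6 CPM. All 11 PWK mice were below the lowest B6 mouse for *Itm2a*, and the step from WSB to PWK (0.14, edgeR adjusted p = 0.0155) was 0.10 (0.0858) without the library of PWK WT female 1.

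**Figure D2:**
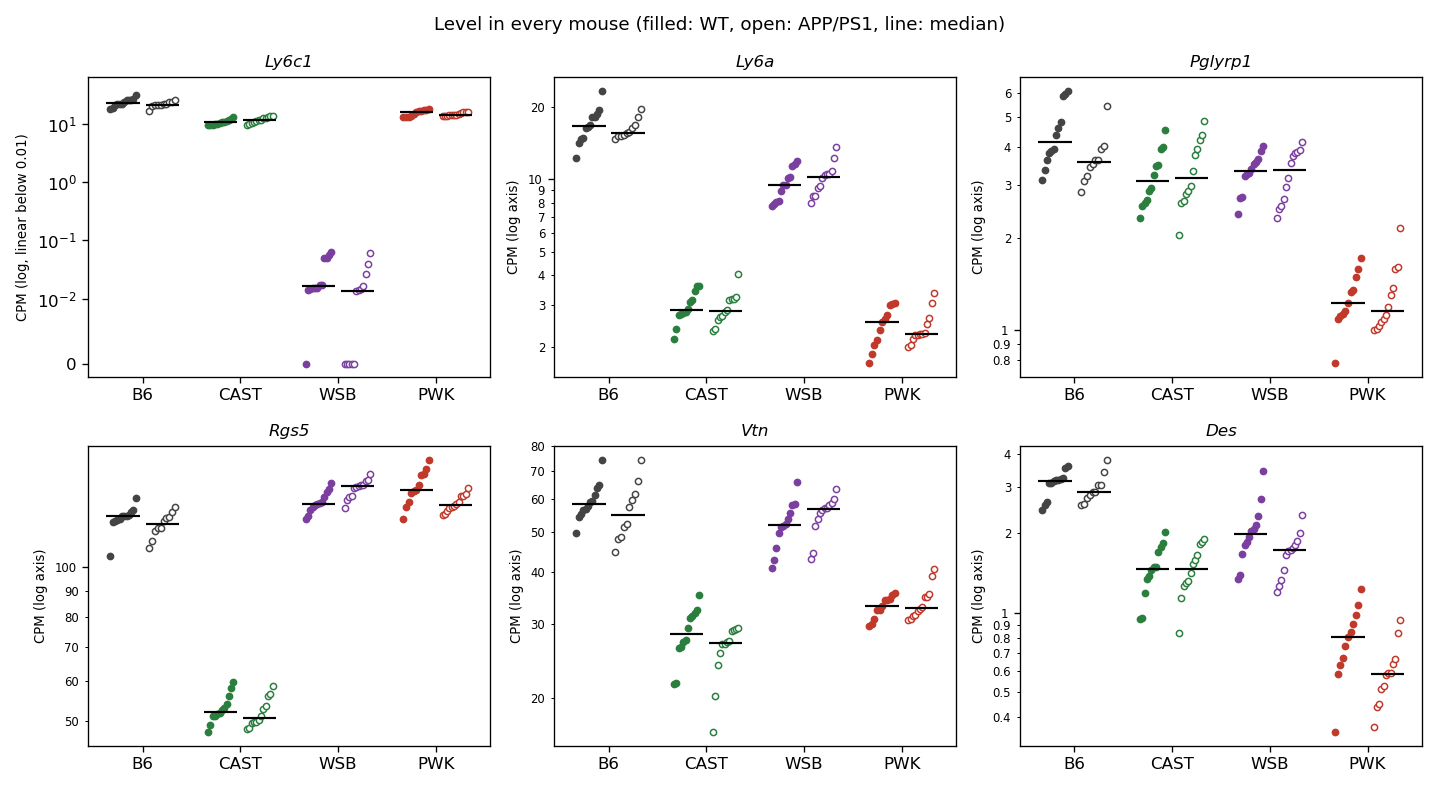
Level (CPM, log axis; linear below 0.01 for *Ly6c1*) in every mouse of each strain for 6 genes, filled for WT and open for *APP/PS1*, with a line at the median of each group. WSB mice are near 0 for *Ly6c1*, PWK mice are lowest for *Pglyrp1* and *Des*, and CAST mice are lowest for *Rgs5*.

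Of 4 genes of endothelial activation and vessel tone, *Icam1* had its highest mean in CAST, *Vwf* in WSB, and *Vcam1* and *Nos3* in B6. *Icam1* (chr9:21015985-21028817), to which leukocytes adhere, had medians of 2.28 CPM in B6 (1.88 to 2.88), 3.26 in CAST (2.36 to 3.82), 2.34 in WSB (1.78 to 3.20) and 1.70 in PWK (1.36 to 2.67). In CAST, 10 of 12 mice exceeded the highest B6 and the highest PWK mouse, and 8 of 11 PWK mice were below the lowest B6 mouse. *Icam1* was higher than in B6 by 0.44 in CAST (SE 0.10, edgeR adjusted p = 0.000119), lower by -0.39 in PWK (0.00102) and at 0.03 in WSB (0.86). CAST exceeded PWK by 0.83 (edgeR adjusted p = 9.24e-11), with 0.67, 0.83 and 0.92 within the pools. Of its 100-base stretches, 9.67% overlap an antisense gene, so that its counts are uncertain to that extent. The other leukocyte adhesion molecule, *Vcam1*, was lower in PWK by -0.21 (edgeR adjusted p = 0.000152) and at -0.01 in CAST and -0.09 in WSB. Von Willebrand factor (*Vwf*), which endothelial cells store and release in clotting, was higher than in B6 by 0.31 in CAST (0.00152 by edgeR) and 0.49 in WSB (1.75e-06), and WSB exceeded PWK by 0.63 (3.5e-09). The endothelial nitric oxide synthase *Nos3*, with 10.2% of its stretches shared with other genes and counts that are uncertain to that extent, was -0.34 in CAST and -0.23 in WSB.

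Among the 14 mural and basement membrane genes, 2 were higher and 8 lower than in B6 in CAST (30.3% and 31.1% of all genes), 4 higher and 8 lower in WSB (23.2% and 24.3%), and 4 higher and 10 lower in PWK (28.8% and 30.4%). Their medians of log2 difference were -0.36, -0.18 and -0.50. CAST exceeded PWK in 7 genes and was below it in 3 (27.8% and 27.1% of all genes), WSB exceeded PWK in 7 and was below it in 2 (27.5% and 27.0%), and CAST exceeded WSB in 6 and was below it in 6 (27.1% and 27.2%), with medians of 0.10, 0.13 and -0.06. The F test over strains was passed by all 14, and by 84.5% of all genes. The median range between the highest and the lowest strain was 0.69 on the log2 scale for these genes, 0.47 for the endothelial genes and 0.54 for all genes. Summed levels were 428 ± 13.8 CPM (SD, n = 12) in B6, 361 ± 23.7 in CAST and 441 ± 17.2 in WSB (n = 12 each), and 415 ± 18.8 in PWK (n = 11). The highest mean was that of B6 for 9 of the 14 genes, of CAST for 2, of PWK for 2 and of WSB for 1, again without such counts over all genes. The sum, in which *Rgs5* was the most abundant gene outside CAST (134 CPM in WSB, against 53.0 in CAST, where *Col4a2* was), had its highest mean in WSB, and no CAST mouse (highest 388) reached the lowest B6 or WSB mouse (407 each). Of the calls among CAST, WSB and PWK over the 41 genes, 3 did not have the same direction in every pool, *Slc2a1* for CAST against PWK and *Vcam1* and *Mfsd2a* for WSB against PWK.

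Pericyte genes did not move as a block. *Pdgfrb* (on chromosome 18), the receptor through which pericytes are recruited, had medians of 27.4 CPM in B6 (25.4 to 30.0), 21.8 in CAST (18.3 to 29.1), 27.2 in WSB (22.6 to 30.6) and 22.2 in PWK (20.9 to 25.9). Of the CAST and PWK mice, 10 of 12 and 9 of 11 were below the lowest B6 mouse. *Pdgfrb* was lower than in B6 by -0.30 in CAST (SE 0.05, edgeR adjusted p = 2.45e-07) and -0.28 in PWK (3.26e-06), and at -0.01 in WSB (0.846). WSB exceeded PWK by 0.26 (edgeR adjusted p = 1.05e-05), with 0.27, 0.28 and 0.21 within the pools.

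*Rgs5* (chr1:169655501-169695813), a regulator of G protein signalling and a common pericyte marker, was the most abundant mural gene per length, at 25.1 CPM per kb of exons. It had medians of 126 CPM in B6 (105 to 137), 52.2 in CAST (47.7 to 59.6), 133 in WSB (124 to 146) and 142 in PWK (124 to 162). All 12 CAST mice lay below the lowest mouse of each other strain. *Rgs5* in CAST was 2.36-fold lower than in B6 (log2 -1.24, SE 0.03, edgeR adjusted p = 1.93e-51). It was lower than in PWK by -1.43 (1.47e-55 by edgeR; -1.44, -1.50 and -1.37 within the pools) and lower than in WSB by -1.34 (4.02e-54; -1.32, -1.36 and -1.32). In WSB and PWK it exceeded B6 by 0.10 (edgeR adjusted p = 0.00663) and 0.20 (3.66e-07). The step from PWK to WSB (-0.09, edgeR adjusted p = 0.0139) was -0.07 (0.0640) without the library of PWK WT female 2.

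Vitronectin (*Vtn*, chr11:78499091-78502324), a secreted adhesion protein made in brain mainly by pericytes, had medians of 58.3 CPM in B6 (49.6 to 74.2), 28.5 in CAST (21.5 to 35.2), 52.0 in WSB (40.9 to 65.8) and 33.2 in PWK (29.8 to 35.7). All CAST and all PWK mice lay below the lowest B6 and the lowest WSB mouse. *Vtn* was lower than in B6 by -1.06 in CAST (SE 0.07, edgeR adjusted p = 1.36e-23), -0.84 in PWK (1.03e-17) and -0.19 in WSB (0.0246). CAST differed from WSB by -0.87 (6.95e-19 by edgeR; -0.83, -1.02 and -0.88 within the pools), and WSB exceeded PWK by 0.66 (7.24e-13; 0.53, 0.80 and 0.69).

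*Kcnj8* and *Abcc9* encode the pore and the regulatory subunit of the ATP-sensitive potassium channel of pericytes and are neighbours (chr6:142564837-142571614 and chr6:142587862-142702315). *Kcnj8* had medians of 3.36 CPM in B6 (2.24 to 4.61), 2.01 in CAST (1.45 to 2.67), 2.61 in WSB (1.87 to 3.06) and 2.07 in PWK (1.63 to 2.46). In CAST 10 mice, in PWK 9 and in WSB 1 were below the lowest B6 mouse. Its difference from B6 was -0.78 in CAST (SE 0.10, edgeR adjusted p = 7.29e-11), -0.42 in WSB (0.000232) and -0.75 in PWK (6.4e-10). *Abcc9* was lower in CAST by -0.48 (9.83e-11 by edgeR) and in PWK by -0.44 (2.64e-09), yet higher in WSB by 0.20 (0.00353). All 12 WSB mice exceeded the highest CAST and the highest PWK mouse for *Abcc9*. Of its stretches, 0.735% overlap an antisense gene, and the counts of *Abcc9* are uncertain to that extent. The proteoglycan *Cspg4* (NG2), which oligodendrocyte precursors also express, was -0.22 in WSB and -0.25 in PWK. *Notch3*, the receptor that keeps mural cells differentiated, was higher in PWK than in B6 by 0.26 (edgeR adjusted p = 7.06e-07), and all 11 PWK mice exceeded the highest B6 mouse (30.5 CPM). In WSB it was lower by -0.17 (edgeR adjusted p = 0.00128), and all 12 WSB mice lay below the lowest PWK mouse (30.9 CPM). An antisense gene overlaps 3.61% of the stretches of *Notch3*, and its counts are uncertain to that extent.

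Of the contractile genes of smooth muscle, *Acta2* and *Tagln* were lower in each other strain than in B6, *Myh11* was lower in WSB and PWK, and *Cnn1* in PWK. *Acta2* (chr19:34241090-34255590), smooth muscle actin, had medians of 9.27 CPM in B6 (7.09 to 13.1), 7.69 in CAST (4.34 to 9.31), 5.21 in WSB (3.46 to 6.58) and 5.23 in PWK (3.86 to 7.21). All 12 WSB, 10 of 11 PWK and 5 of 12 CAST mice were below the lowest B6 mouse. *Acta2* differed from B6 by -0.41 in CAST (SE 0.11, edgeR adjusted p = 0.000733), -0.89 in WSB (7.78e-11) and -0.92 in PWK (3.58e-11). CAST exceeded PWK by 0.51 (edgeR adjusted p = 9.67e-05), with 0.49, 0.48 and 0.47 within the pools. Transgelin (*Tagln*), an actin-binding protein, was -0.57 in CAST, -0.65 in WSB and -0.58 in PWK, but 48.3% of its 100-base stretches also lie in other genes, chiefly an antisense gene, and the counts of the pair are uncertain. Smooth muscle myosin (*Myh11*) was -0.57 in WSB (edgeR adjusted p = 3.22e-06), -0.55 in PWK (5.23e-06) and -0.20 in CAST (0.0787).

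Desmin (*Des*, chr1:75360329-75368579), the intermediate filament of muscle and pericytes, had medians of 3.17 CPM in B6 (2.45 to 3.61), 1.47 in CAST (0.948 to 2.02), 1.99 in WSB (1.35 to 3.44) and 0.807 in PWK (0.352 to 1.23). All CAST and PWK mice and 10 of 12 WSB mice lay below the lowest B6 mouse. *Des* was 3.85-fold lower than in B6 in PWK (log2 -1.94, SE 0.13, edgeR adjusted p = 1.15e-23), with differences of -1.09 in CAST (7.67e-13) and -0.60 in WSB (1.9e-05). WSB exceeded PWK by 1.34 (edgeR adjusted p = 3.08e-15), with 1.15, 1.46 and 1.26 within the pools. Counts of *Des* are uncertain for the 3.28% of its stretches that overlap an antisense gene. Calponin (*Cnn1*, chr9:22099216-22109630), which binds actin in smooth muscle, was the least abundant member and had medians of 0.444 CPM in B6 (0.162 to 0.784), 0.359 in CAST (0.0675 to 0.766), 0.399 in WSB (0.169 to 0.780) and 0.117 in PWK (0.0450 to 0.369). The strains overlapped, and 8 of 11 PWK mice were below the lowest B6 mouse. *Cnn1* differed from B6 by -1.55 in PWK (SE 0.29, edgeR adjusted p = 3.68e-06), -0.26 in CAST (0.405) and -0.06 in WSB (0.882). WSB exceeded PWK by 1.49 (edgeR adjusted p = 9.66e-06), with 1.75, 1.08 and 1.29 within the pools.

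The chains of type IV collagen went the other way. *Col4a1* and *Col4a2*, which together form the collagen network of the basement membrane, lie head to head on chromosome 8 (chr8:11198423-11312826 and chr8:11312805-11449287). *Col4a1* had medians of 51.0 CPM in B6 (46.0 to 57.1), 68.8 in CAST (59.1 to 77.1), 61.2 in WSB (52.8 to 69.2) and 61.1 in PWK (50.4 to 68.6). All 12 CAST, 8 of 12 WSB and 7 of 11 PWK mice exceeded the highest B6 mouse. *Col4a1* was higher than in B6 by 0.42 in CAST (SE 0.05, edgeR adjusted p = 1.02e-12), 0.25 in WSB (7.3e-06) and 0.23 in PWK (2.14e-05). *Col4a2* had medians of 62.2 CPM in B6 (57.3 to 69.4), 103 in CAST (83.1 to 126), 82.5 in WSB (73.9 to 88.8) and 70.0 in PWK (62.0 to 77.1), and all CAST and WSB mice exceeded the highest B6 mouse. Its difference from B6 was 0.69 in CAST (SE 0.05, edgeR adjusted p = 2.91e-24), 0.38 in WSB (4e-11) and 0.15 in PWK (0.0035).

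Lists of related vascular genes, which share no gene with the 41, were counted in the same way and are read against all genes. The shares of all genes higher and lower than in B6 were 30.3% and 31.1% in CAST, 23.2% and 24.3% in WSB, and 28.8% and 30.4% in PWK, with 84.5% past the F test. Of 19 other barrier transporters and junction genes, 5 were higher and 10 lower in CAST than in B6, 5 and 6 in WSB, and 6 and 7 in PWK, and all 19 passed the F test. Those with the smallest p were the junction molecule *F11r* (means of 8.71, 5.63, 6.28 and 11.3 CPM for B6, CAST, WSB and PWK), the lipoprotein receptor *Lrp8* (111, 165, 132 and 135) and the thiamine transporter *Slc19a3* (4.16, 1.86, 4.22 and 3.98). Of 40 genes of angiogenic and barrier signalling, 9 were higher and 12 lower in CAST, 9 and 16 in WSB, and 10 and 15 in PWK, and 35 passed the F test. The peptide ligand *Apln* fell from 33.3 CPM in B6 to 30.4 in CAST, 22.3 in WSB and 13.4 in PWK, while *Angpt2*, a ligand of *Tek*, had its lowest mean in B6 (1.47, against 3.14, 2.74 and 4.30). *Plvap*, a protein of fenestrated endothelium, was 8.94, 14.1, 12.2 and 9.53 CPM in these strains. Of 18 other mural genes tested (of 19), 4 were higher and 11 lower in CAST, 2 and 10 in WSB, and 3 and 12 in PWK, and all 18 passed the F test, led by *Mylk*, *Tpm1* and *Itga8*. Of 19 other basement membrane genes, 9 were higher and 4 lower in CAST, 11 and 3 in WSB, and 5 and 4 in PWK, and all 19 passed the F test. The laminin chain *Lama2* was at 10.4 CPM in CAST, against 26.7 in B6, 29.9 in WSB and 19.1 in PWK, while agrin (*Agrn*) was 205, 296, 220.2 and 242 CPM (B6, CAST, WSB, PWK) and the collagen *Col18a1* was 23.0, 40.8, 34.6 and 29.1.

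Markers of other cell types were counted by strain as well, and their part in the vascular differences was not tested. The counts stand beside shares of all genes of 30.3% higher and 31.1% lower for CAST, 23.2% and 24.3% for WSB, and 28.8% and 30.4% for PWK. All 10 oligodendrocyte genes were lower than in B6 in CAST, WSB and PWK, with summed levels of 6906 CPM in B6, against 4275 in CAST, 4656 in WSB and 4453 in PWK, led by *Mbp*. Of 10 fibroblast and meningeal genes, 3 were higher and 1 lower in CAST, 1 higher and 0 lower in WSB, and 1 higher and 6 lower in PWK, with sums of 143, 147, 161 and 99.0 CPM (B6, CAST, WSB, PWK), led by *Igf2*. Of 10 choroid plexus genes, 1 was higher and 4 lower in CAST, 1 and 2 in WSB, and 0 and 4 in PWK, with sums of 511, 493.3, 504 and 415 CPM, led by *Ttr*. Of 10 blood genes, 0 were higher and 2 lower in CAST and in WSB, and 2 higher and 4 lower in PWK, with sums of 36.8, 29.8, 23.3 and 47.9 CPM, led by *Hbb-bs*. Of 10 microglial genes, 1 was higher and 8 lower in CAST, 2 and 8 in WSB, and 3 and 6 in PWK, with sums of 239.8, 187, 177 and 203 CPM. Of 10 astrocyte genes, 6 were higher and 3 lower in CAST, 1 and 5 in WSB, and 4 and 3 in PWK (sums 5319.7, 5711, 5017 and 5646 CPM, led by *Slc1a2*). Of 10 neuronal genes, 0 were higher and 4 lower in CAST, 1 and 2 in WSB, and 3 and 2 in PWK (sums 8268, 8063, 8389.8 and 8249 CPM, led by *Snap25*). Of 9 ependymal genes tested (of 10), 4 were higher and 2 lower in CAST, 2 and 0 in WSB, and 2 and 1 in PWK (sums 27.1, 51.5, 31.1 and 44.3 CPM, of which *Rsph1* made up 3.298, 25.1, 4.53 and 21.4). No gene of these lists was at 0 in every mouse of a group.

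The next question was whether the vascular genes differed between *APP/PS1* and WT mice of the same strain. In B6, 0 of the 27 endothelial and 0 of the 14 mural genes passed the threshold in edgeR or DESeq2 (0.224% of all genes in edgeR), with an unadjusted p under 0.05 for 2 and 3 of them. In CAST, 0 endothelial genes passed in either tool (unadjusted for 3), and 1 mural gene, *Col4a1*, was lower (0.114% of all genes were lower, 0.658% differed in either direction). In WSB, 1 endothelial gene, *Kdr*, was higher (0.308% of all genes were higher, 0.375% differed), and 0 mural genes passed in either tool (unadjusted for 4). In PWK, 0 endothelial and 0 mural genes passed in either tool, with an unadjusted p under 0.05 for 7 and 4, beside 2.04% of all genes past the threshold. For the response averaged over the strains, the count was 0 in each group by edgeR and by DESeq2 (2.27% of all genes in edgeR), with an unadjusted p under 0.05 for 2 endothelial genes and 1 mural gene. An unadjusted p under 0.05 by edgeR is far more common than an adjusted one. Of all 23702 genes, 1330 had it in B6, 1848 in CAST, 1826 in WSB, 2836 in PWK and 2736 in the averaged response. The median response of the endothelial genes in B6, CAST, WSB and PWK was -0.01, 0.00, 0.03 and -0.04, and that of the mural genes -0.05, -0.02, 0.07 and 0.01. The summed endothelial level of *APP/PS1* mice was 1242, 1102, 1165 and 1073 CPM in the same order, and the mural sum was 426, 343, 463 and 412. Each of these means was within the range of single WT mice of its strain, apart from the mural sum in WSB, which stood at the level of the highest WT mouse (463).

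**Figure D3:**
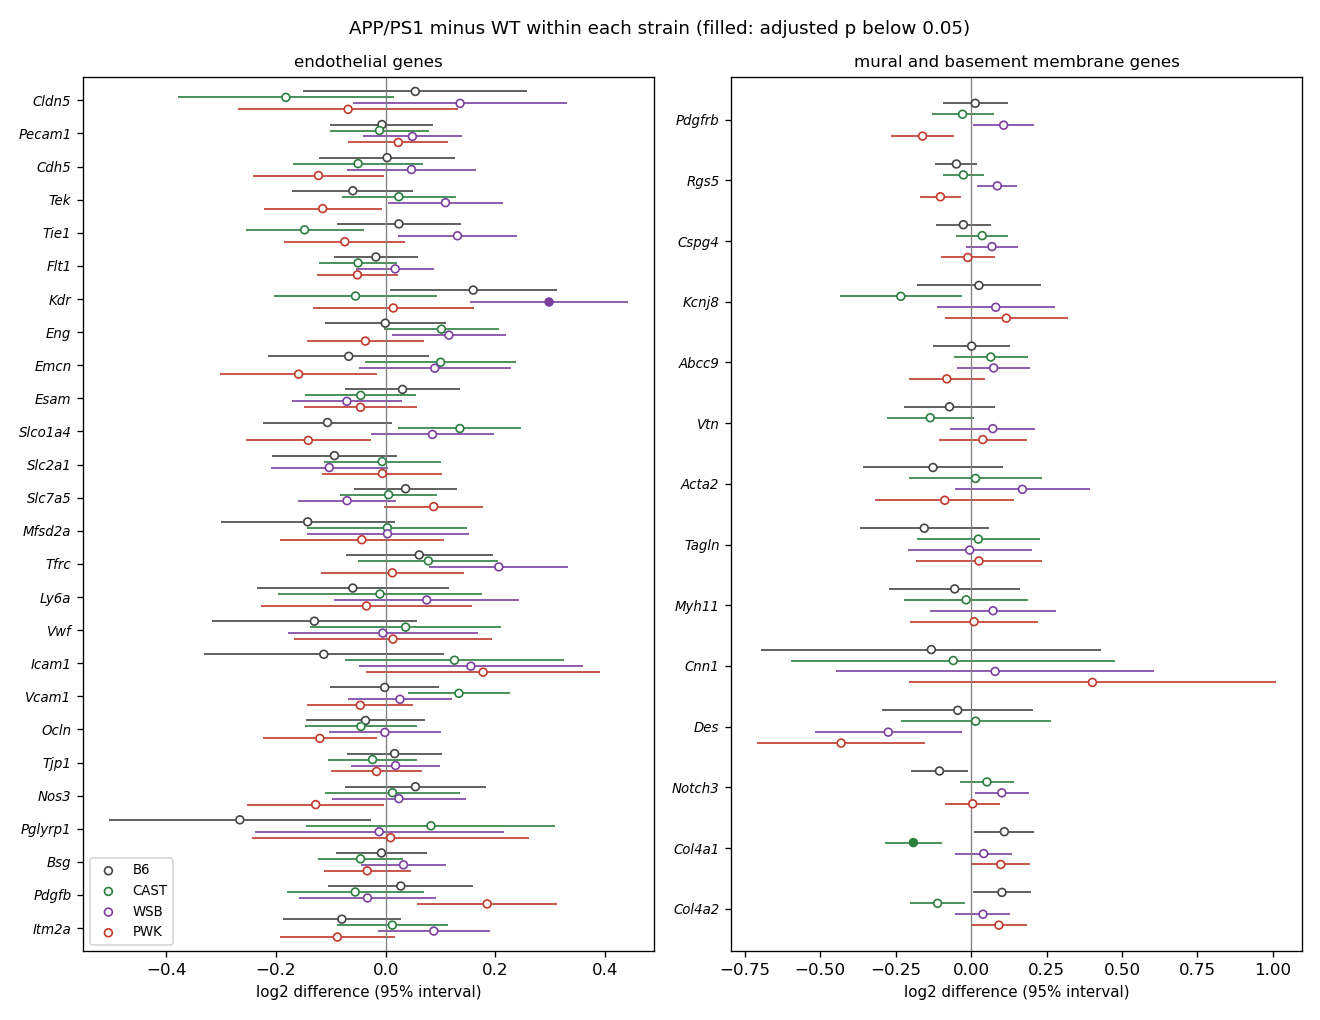
Log2 difference between *APP/PS1* and WT mice (horizontal axis) of each endothelial gene (left) and each mural or basement membrane gene (right) in B6, CAST, WSB and PWK, with 95% intervals and filled points where the adjusted p was below 0.05. Filled points are those of *Kdr* in WSB and *Col4a1* in CAST, and most intervals include 0; *Ly6c1* is not drawn.

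*Kdr* was higher in WSB.*APP/PS1* mice. Its level was between 18.7 and 26.8 CPM (median 22.5) in the 12 WSB.*APP/PS1* mice and between 15.7 and 20.8 (median 18.3) in the 12 WT mice. All 12 *APP/PS1* mice lay above the WT median and 8 above the highest WT mouse. The log2 difference was 0.30 (SE 0.07, 95% interval 0.15 to 0.44, edgeR adjusted p = 0.0287), and 0.36, 0.28 and 0.26 within the pools. With the pool as a covariate the difference was 0.30 and the adjusted p 0.0611, within a range of 0.0112 (DESeq2) to 0.0611 over the alternatives with both sexes, and it was 0.782 in females alone (0.26) and 0.396 in males alone (0.33). In B6.*APP/PS1* mice, *Kdr* had a median of 21.6 CPM (19.0 to 22.8), and 7 of 10 mice exceeded the highest WT mouse, with a difference of 0.16 that did not pass the threshold (edgeR adjusted p = 0.857). The differences were -0.05 in CAST (0.944 by edgeR; median 9.94 CPM, 8.69 to 18.0) and 0.01 in PWK (0.979; median 18.9, 15.1 to 22.5). The response of *Kdr* was not shown to differ between strains (F test, edgeR adjusted p = 0.256), and the response in WSB exceeded that in PWK by 0.28 (0.284).

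*Col4a1* was lower in CAST.*APP/PS1* mice, the strain with the highest WT level. Its level was between 52.7 and 66.0 CPM (median 59.8) in the 12 CAST.*APP/PS1* mice and between 59.1 and 77.1 (median 68.8) in the 12 WT mice. All 12 *APP/PS1* mice were below the WT median and 5 were below the lowest WT mouse. The log2 difference was -0.19 (SE 0.05, 95% interval -0.28 to -0.10, edgeR adjusted p = 0.0212), and -0.19, -0.05 and -0.27 within the pools, of which the second held a single CAST.*APP/PS1* mouse. With the pool as a covariate the difference was -0.17 and the adjusted p 0.0738, the highest of a range that began at 0.0120 (DESeq2) over the alternatives with both sexes, and it was 0.443 in females alone and 0.392 in males alone. *Col4a2* in CAST differed by -0.11 (edgeR adjusted p = 0.464).

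In the other strains, *Col4a1* had medians of 53.3 CPM in B6.*APP/PS1* mice (51.7 to 64.3), 62.9 in WSB (51.4 to 72.6) and 64.9 in PWK (53.1 to 72.2). All 10 B6.*APP/PS1* mice were above the WT median. The differences were 0.11 in B6 (edgeR adjusted p = 0.834), 0.04 in WSB (0.934) and 0.10 in PWK (0.397). The response of *Col4a1* differed between the strains in the F test (range 0.30, edgeR adjusted p = 0.0138), as 0 endothelial genes and 0.473% of all genes did. An unadjusted p under 0.05 was found for 7 endothelial and 5 mural genes, beside 2045 of all 23702 genes. For *Col4a1* with the pool as a covariate, this F test gave an adjusted p of 0.0623, the highest of its alternatives, and the lowest was 0.00907. DESeq2's test gives no F test over strains.

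**Figure D4:**
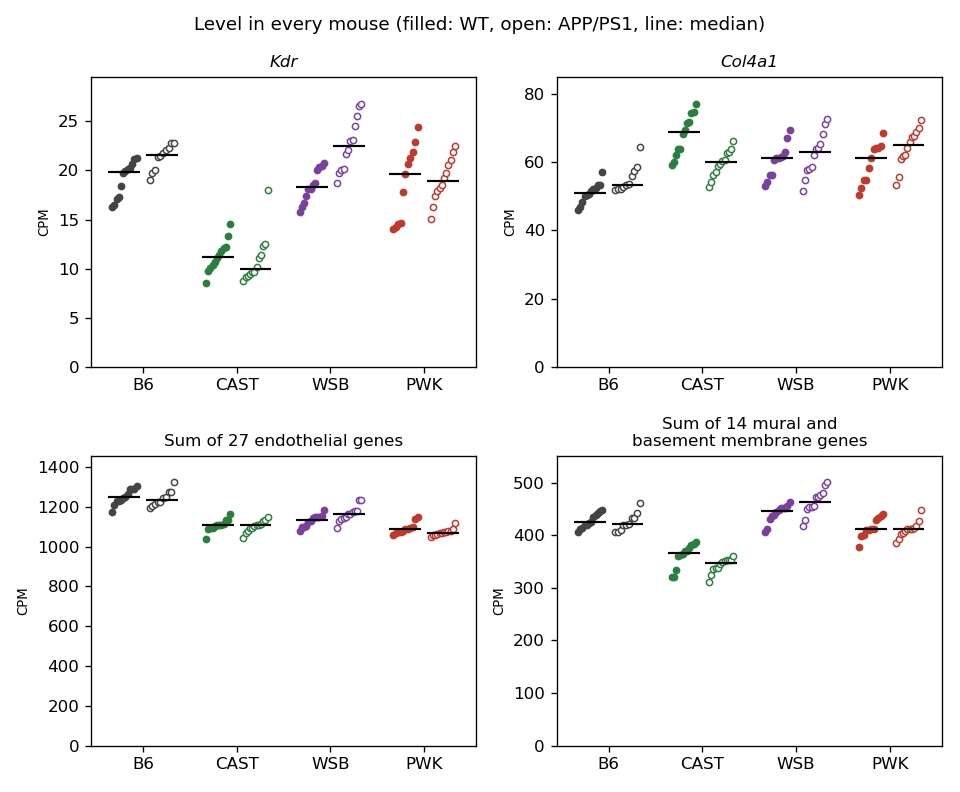
Level (CPM, axis from 0) in every mouse of each strain for *Kdr*, *Col4a1* and the sums of the 27 endothelial and the 14 mural and basement membrane genes, filled for WT and open for *APP/PS1*, with a line at the median of each group. *Kdr* is higher in WSB.*APP/PS1* and *Col4a1* lower in CAST.*APP/PS1* mice than in their WT controls, with overlap in both.

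Differences between responses were tested for each of the 6 pairs of strains. The response of *Col4a1* in CAST was below that in PWK by -0.29 (edgeR adjusted p = 0.0265), where 0.148% of all genes were lower, and this was -0.26 (0.0724) without the library of PWK WT female 5 and -0.27 (0.0608) with the pool as a covariate, over a range of alternatives from 0.0139 to 0.0724. Its difference from the response in B6 was -0.30 (edgeR adjusted p = 0.0698, or 0.0413 without PWK WT female 5, DESeq2 0.0233) and that from the response in WSB -0.23 (0.205). The response of *Rgs5* in WSB exceeded that in PWK by 0.19 (SE 0.05, edgeR adjusted p = 0.0373), where 0.127% of all genes were higher. Behind it, *Rgs5* was between 131 and 152 CPM (median 144) in WSB.*APP/PS1* mice and between 127 and 143 (median 133) in PWK.*APP/PS1* mice, with 11 of 12 WSB mice above and 11 of 12 PWK mice below their WT medians. The single responses were 0.09 in WSB (edgeR adjusted p = 0.394) and -0.10 in PWK (0.111), and within the pools all 3 values were positive in WSB and all 3 negative in PWK (-0.16, -0.10 and -0.08). The difference was 0.17 without the library of PWK WT female 2 (edgeR adjusted p = 0.109) or 3 (0.0848) and 0.19 with the pool as a covariate (0.0569), over a range of 0.0101 to 0.109, and without PWK WT female 1 the response in PWK was -0.12 (0.0327).

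In DESeq2, *Pdgfrb* passed as well as *Rgs5* for WSB against PWK (edgeR adjusted p = 0.0763, DESeq2 0.0415). For the remaining pairs, 0 of the 41 genes passed the threshold in edgeR, and in DESeq2 1 did (*Col4a1* for CAST against B6), for CAST against B6 (0.038% of all genes), WSB against B6 (0.038%), PWK against B6 (0.224%) and CAST against WSB (0.127%). Unadjusted p-values under 0.05 were found there for 5 endothelial and 3 mural, 3 and 2, 1 and 2, and 3 and 5 genes. Of all 23702 genes, 1256, 1284, 1872 and 1669 had such a p by edgeR in these pairs. Endothelial genes gave 0 calls in edgeR and in DESeq2 for CAST against PWK (0.228% of all genes) and for WSB against PWK (0.422%). Unadjusted p-values under 0.05 were found for 5 and 11 endothelial genes in these 2 pairs, beside 1608 and 2220 of all 23702 genes. Among the genes near the threshold, desmin in PWK was -0.43 (edgeR adjusted p = 0.0971), or -0.52 (0.0180) without the library of PWK WT female 3, and -0.76, -0.37 and -0.11 within the pools. *Pdgfrb* in PWK was -0.16 (edgeR adjusted p = 0.103), or -0.18 (0.0362) with the pool as a covariate, and 8 of 12 *APP/PS1* mice lay below the lowest WT mouse. *Pdgfb* in PWK was 0.19 (edgeR adjusted p = 0.136), and all 12 *APP/PS1* mice lay above the WT median.

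In the related lists, few genes differed between *APP/PS1* and WT mice. Of the 40 genes of angiogenic and barrier signalling, 2 were higher in the response averaged over strains, *Tgfbr2*, a receptor of TGF-beta (0.13, SE 0.03, edgeR adjusted p = 0.00025), and *Nrp2*, a co-receptor of VEGF and semaphorins (0.12, SE 0.03, 0.00922), beside 2.27% of all genes that differed in that response. In PWK, *Tgfbr2* was higher (0.23, edgeR adjusted p = 0.00172) and *Axin2*, a target gene of Wnt signalling named after its values were seen, was lower (-0.16, 0.0317), beside 2.04% of all genes that differed. Single strains other than PWK had 0 calls from this list in edgeR and in DESeq2. An unadjusted p under 0.05 was found for 1 gene in B6, 3 in CAST and 7 in WSB. The F test on the difference of responses between strains was passed by 0 of the 40 in edgeR (unadjusted 5). Counts of all genes with an unadjusted p under 0.05 are given above for each of these comparisons. The other barrier, other mural and other basement membrane lists had 0 genes past the threshold in any strain by edgeR or DESeq2, with an unadjusted p under 0.05 for between 0 and 4 genes of each list and strain. In the averaged response these lists had 0 calls in edgeR (unadjusted for 4, 4 and 2 genes), while DESeq2 called 1, the collagen *Col15a1*, which was lower. Between strains, the response of the iron exporter *Slc40a1*, of the other barrier list, was higher in WSB than in PWK by 0.37 (SE 0.09, edgeR adjusted p = 0.0477, DESeq2 0.0229), where 0.127% of all genes were higher. This call was lost without the count filter (0.0569) and without the library of PWK WT female 2 (0.0656), 3 (0.123), 4 (0.0548) or 5 (0.0702), over a range of alternatives from 0.00933 to 0.123. *Col15a1* and *Slc40a1* were named after their values were seen. Among markers of other cell types, the microglial genes higher in *APP/PS1* mice by edgeR were 2 of 10 in B6 (0.224% of all genes differed), 3 in CAST (0.658%), 3 in WSB (0.375%) and 7 in PWK (2.04%), or 9 in the averaged response (2.27%). DESeq2 gave 2, 4, 4, 7 and 9, and the other microglial genes did not pass. The microglial sum was 271 CPM in B6.*APP/PS1*, 218 in CAST, 200.3 in WSB and 252 in PWK mice. The astrocyte gene *Gfap* was higher in each strain and by 0.43 in the averaged response (edgeR adjusted p = 2.36e-12), and was the 1 gene of the 10 astrocyte genes that passed in each case by edgeR and by DESeq2. Of the other lists, 0 neuronal, oligodendrocyte, choroid plexus, fibroblast, blood and ependymal genes passed in any strain by edgeR or DESeq2, with an unadjusted p under 0.05 for 0 to 3 genes of each list and strain and 5 oligodendrocyte genes in PWK. The part of these cell types in the responses of *Kdr* and *Col4a1* was not tested.

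Females and males were compared over all strains and genotypes. Of the 27 endothelial genes, 2 were lower in females (0.738% of all genes were lower, 1.77% differed). In edgeR or DESeq2, 0 of the 14 mural genes differed, with an unadjusted p under 0.05 for 3, beside 3364 of all 23702 genes by edgeR. *Slco1a4* was lower in females by -0.12 (edgeR adjusted p = 0.0104; 0.00358 to 0.0213 over the alternatives). *Itm2a*, which lies on the X chromosome, was lower by -0.09 (edgeR adjusted p = 0.0487; 0.0251 to 0.0902 over the alternatives), a call that was lost without the library of B6.*APP/PS1* female 1 (0.0643) or 3 (0.0902) or of PWK WT female 1 (0.0838) or 5 (0.0670), and without the count filter (0.0699). With the replicate number as a block, the call of *Itm2a* was lost as well (adjusted p = 0.0528 in that fit). *Tfrc*, at -0.11 (0.0521 by edgeR), passed in DESeq2 (0.0274) and in edgeR without the library of B6.*APP/PS1* female 1 (0.0335) or 4 (0.0206) or of PWK WT female 2 (0.0389) or 3 (0.0383).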

How the data were processed

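The authors trimmed reads with Trimmomatic, aligned them with STAR to mm10 (B6) or custom genomes (CAST, WSB, PWK) and counted them per Ensembl gene with HTSeq. The strand setting is not given in the sources used here, so genes with antisense overlap are reported as uncertain. The deposited values are raw counts. A median of 69.7% of reads fell on genes, 15.5% on no feature, 11.1% were not unique and 4.13% ambiguous, and these last 3 classes were left out of library sizes. Groups were read from the sample titles.

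edgeR 4.0.16 in R 4.3.3 (limma 3.58.1) was run with TMM scaling, 16 group means and contrasts averaged over the sexes. Intervals use 77 degrees of freedom. Tables and figures were made in Python 3.11.15 (Biopython 1.88, matplotlib 3.10.9, pandas 2.3.3, scipy 1.17.1, numpy 2.4.6). The fits were tested on simulated data for 1 comparison of WT strains, 3 responses and the F test on responses. Of 1.25-fold changes, simulated only in genes above a minimum of mean counts, edgeR recovered 70% for CAST against PWK in WT mice. It recovered 66% of them for the response in PWK and 64% in the F test on responses. Of 1.5-fold changes it recovered 96%, 94% and 84%. Smaller changes were not simulated, so that a gene that did not pass may still differ. Alternatives were DESeq2 1.42.0 (size factors, test), no count filter, the pool as a covariate, a replicate block, fits of WT mice or of a single strain, and each mouse of the 2 smallest groups left out. Values for females or males alone are contrasts within the main fit of both sexes. The members and the 12 lists of 177 other genes were chosen with earlier results of these data known. Given in full were the 10 members with the largest WT range past the F test, members past the threshold in a response, and *Cldn5*, *Pecam1*, *Pdgfrb* and *Acta2*, and in each other list up to 3 genes with the smallest p for strain and for the averaged response. 1 gene named by this rule is not reported here.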

Additional observations from a re-analysis of the deposited data

Results flagged for a closer look

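In groups of 4 to 6 mice of a strain, genotype and sex, 269 sets of levels were searched for a mouse far from the rest (Dixon's test at 95%), and 15 held such a mouse. Chance gives about 5% of groups. The summed endothelial level was 1118 CPM in PWK.*APP/PS1* male 6 (others 1057 to 1071) and 1151 in PWK WT male 3 (others 1068 to 1097), and the summed mural level was 448 in PWK.*APP/PS1* female 3 (others 409 to 418). *Cldn5* was 43.2 CPM in B6 WT male 5 (others 26.9 to 31.0). *Ly6a* was 19.7 in B6.*APP/PS1* female 2 (others 14.7 to 15.2) and 3.04 in PWK.*APP/PS1* male 3 (others 2.01 to 2.29). In PWK.*APP/PS1* female 6, *Icam1* was 1.31 (others 1.95 to 2.43) and *Pglyrp1* 1.61 (others 1.00 to 1.12). *Rgs5* was 137 in B6 WT female 4 (others 123 to 127), 105 in B6 WT male 5 (others 123 to 129.6) and 143 in PWK.*APP/PS1* male 6 (others 127 to 132). *Vtn* was 16.6 in CAST.*APP/PS1* female 5 (others 25.7 to 29.4). *Cnn1* was 0.147 in B6.*APP/PS1* female 1 (others 0.370 to 0.378) and 0.137 in CAST WT male 4 (others 0.295 to 0.449). *Des* was 0.836 in CAST.*APP/PS1* male 5 (others 1.41 to 1.91).

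Among the 41 genes and the related vascular lists, responses that differed between strains by a test of the difference itself were those of *Col4a1* over the strains (range 0.30), of *Col4a1* in CAST against PWK (-0.29), of *Rgs5* in WSB against PWK (0.19) and of *Slc40a1* in WSB against PWK (0.37), all on the log2 scale.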

How the results depend on the processing

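Of the 40 counts and tests that answer a comparison, 573 values under alternatives stayed on the same side and 19 moved. None of these results reversed. The number of endothelial genes higher in WSB than in B6 (2) was 1 without the count filter and 1 to 2 when single mice were left out. The number of mural genes lower in WSB than in PWK (2) was 1 to 2 when single mice were left out. The 1 mural gene of the CAST response (*Col4a1*) and the 1 endothelial gene of the WSB response (*Kdr*) were 0 with the pool as a covariate, in females alone and in males alone. Mural genes of the PWK response numbered 1 with the pool as a covariate, against 0, and 0 to 1 when single mice were left out. The 1 mural gene whose response differed between strains was 0 with the pool as a covariate. Endothelial genes that differed between the sexes (2) were 1 without the count filter and 1 to 3 when single mice were left out.

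Same-numbered mice did not deviate together (0 of 45 pairs with a correlation above 0.1), so the numbers do not pair the mice. With the replicate number as a block, endothelial genes that differed between the sexes were 1, and the other counts stayed within 1.5 times. Over all genes the block gave 43, 158, 88 and 494 calls for the responses in B6, CAST, WSB and PWK, against 53, 156, 89 and 483, and 104 for the F test on responses, against 112. The pool covariate could not be fitted for comparisons with B6 or for the F test over WT strains, and DESeq2 gave no F test. Of single genes, 289 values stayed and 23 no longer passed. Contrasts within a single sex compare fewer mice, and the cause of the other changes was not tested. Depth limits *Cnn1* (3 to 71 counts in WT mice) and *Ly6c1* in WSB.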
